A study of Mus musculus with 24 samples.

Results

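Of the 566 mouse miRNA probed in plasma, 7 were followed here because they are known from white blood cells: mmu-miR-142-3p, mmu-miR-142-5p, mmu-miR-223, mmu-miR-150, mmu-miR-155, mmu-miR-146a and mmu-miR-342-3p. They were chosen by probe name, and no measured value entered the rule. The plasma donors were 24 C57BL/6J mice, all male, of a standard inbred strain without engineered alleles, and 20 weeks old by the labels. There were 8 mice in each of 3 groups, all kept in exposure chambers for 4 h/d over 5 days, and each was assayed alone without pooling. The filtered air group received clean air. The EPFR and EPFR lo groups inhaled combustion particles carrying environmentally persistent free radicals, at 250 µg per cubic meter by the labels, with fewer radicals per gram in EPFR lo. As no group inhaled particles free of radicals, particle mass and radicals cannot be told apart when either exposure is set against filtered air.

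An miRNA is a short RNA that guides silencing proteins to messenger RNAs, and its seed, bases 2 to 8, does most of the pairing. Both arms of miR-142 are cut from 1 hairpin that is transcribed in nearly all blood cell lineages and in few other cells. miR-223 is the miRNA of myeloid cells and is abundant in neutrophils, monocytes and platelets. miR-150 is abundant in mature B, T and natural killer cells. miR-155 and miR-146a are induced when macrophages and lymphocytes are activated, and miR-146a damps NF-κB signaling by silencing Irak1 and Traf6. miR-342 lies in an intron of Evl and is expressed in lymphoid and myeloid cells. Plasma was obtained from blood by centrifugation. Whether these miRNA were released RNA or came from cells or platelets left in the plasma was not tested. For released RNA, a larger number of releasing cells cannot be told apart from more release per cell.

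The mature sequences of 6 of the 7 members matched RefSeq (GRCm38.p6). They are shown 5′ to 3′ with the seed in capitals, because the seed separates the members and joins miR-146a to a relative used below.
mmu-miR-142-3p: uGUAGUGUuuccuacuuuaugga
mmu-miR-142-5p: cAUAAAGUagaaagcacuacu
mmu-miR-223: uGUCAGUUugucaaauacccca
mmu-miR-155: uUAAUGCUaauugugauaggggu
mmu-miR-146a: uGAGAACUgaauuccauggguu
mmu-miR-342-3p: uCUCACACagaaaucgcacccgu
mmu-miR-146b: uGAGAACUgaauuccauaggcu
The 6 members carried 6 distinct seeds, so none of them shares a seed with another. miR-146b, which is no member, has the seed of miR-146a. The genes lie on different chromosomes except that Mir142 and Mir146 are both on chromosome 11. Mir155 lies within its host transcript Mir155hg on chromosome 16, Mir342 within Evl on chromosome 12 and Mir223 within F630028O10Rik on chromosome X, and Mir150 is on chromosome 7. Mir142 is overlapped on the opposite strand by Mir142b.

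Each tagged miRNA is counted singly by a color-coded probe without amplification, and 8418 to 30483 mouse miRNA counts were obtained per mouse. The background limit was 34.1 counts, which is 2 SD over the mean of the 8 negative controls, and 41 of 566 probes had an average raw count beyond it. Scaled counts below are raw counts multiplied by 1 factor per mouse, taken from its positive controls and housekeeping mRNA. In 4 mice the housekeeping mRNA lay at background and the factor was the same, 1.66 (mice 1, 2 and 4 of EPFR lo, and mouse 2 of filtered air). Positive-control counts were lower in replicates 1 to 4 (median 1267.5) than in replicates 5 to 8 (median 1558), and each of these sets held 4 mice of every group. The labels name no batch. Counts from different probes are not compared here as abundances, as probes differ in efficiency.

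Among the members, miR-142-3p, miR-142-5p, miR-223, miR-150 and miR-146a lay above background, with mean raw counts of 66.1, 86.5, 91.4, 72.3 and 35.9 over all mice. miR-342-3p averaged 24.3 counts, below the limit, and miR-155 was listed at a raw count of 1 in every mouse. Together the 7 members made up 2.65% of all mouse miRNA counts.

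miR-142-3p rose after both exposures and was the only one of the 7 members called in either, at an adjusted p under 0.05. Over all 566 probes, 0.707% were called higher in EPFR and likewise 0.707% in EPFR lo. Of the 41 miRNA above background, 4 were called higher in EPFR and 2 in EPFR lo. Its raw counts had a lowest, median and highest value of 19, 23.5 and 76 after filtered air, 23, 75 and 180 after EPFR lo, and 14, 81 and 216 after EPFR. The exposed mice were mostly higher, yet the ranges overlapped: filtered air mouse 6 stood alone at 76 while the other 7 filtered air mice lay at or under 34, and EPFR mice 1 and 2, at 14 and 22, lay among the filtered air mice. Scaled counts averaged 31.0 ± 18.8 after filtered air, 85.1 ± 38.4 after EPFR lo and 99.96 ± 81.3 after EPFR (± SD over 8 mice a group).

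In EPFR, the log2 fold change of miR-142-3p was 1.69 (standard error 0.38, 95% interval 0.95 to 2.43, adjusted p = 0.00181 from edgeR), a 3.22-fold difference in scaled counts. In EPFR lo it was 1.47 (standard error 0.38, 95% interval 0.73 to 2.21, adjusted p = 0.0306), a 2.77-fold difference. Scaled counts were above the filtered air median in 6 of 8 EPFR mice and in 8 of 8 EPFR lo mice. On raw counts these were 6 of 8 and 7 of 8. The two-sided exact permutation test on log2 scaled counts gave p = 0.0597 for EPFR and p = 0.00264 for EPFR lo. The EPFR value was 0.0174 with positive-control scaling, 0.0522 with a pseudocount of 5 and 0.0462 with a pseudocount of 10 (exact permutation). Exact tests were run for 6 members in 3 comparisons, 18 in all, and the exact p above are not adjusted for their number. Adjusted over the 18 tests with housekeeping scaling, the exact permutation p was 0.215 in EPFR and 0.0476 in EPFR lo. Both exposures were set against the same filtered air mice, so their results are not independent of each other.

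How far the EPFR value rested on single mice could be read by leaving each out. Without EPFR mouse 8, which had the highest count, it was 1.31 with an adjusted p of 0.0641, and no other mouse left out ended the call. The EPFR lo call, in contrast, was lost with any of 10 mice left out, namely filtered air mice 1, 3, 4, 5 and 7 and EPFR lo mice 2, 4, 5, 6 and 8. The log2 fold change then ran from 1.35 to 1.48 with adjusted p up to 0.166. Without filtered air mouse 6 the values were higher, 2.00 in EPFR and 1.78 in EPFR lo (adjusted p = 6.17e-05 and 0.00137).

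A count of miR-142-3p above the mouse's own background limit was found in 1 of 8 filtered air mice, 6 of 8 EPFR lo mice and 6 of 8 EPFR mice. Fisher's exact test gave p = 0.0406 for each exposure, and 0.365 after adjustment over 18 such tests, so neither passed. Because 7 filtered air mice were at or under their limit, the fold change of raw counts is one of signal plus background. In the deposited normalized counts, which are background-subtracted, miR-142-3p had a log2 difference of 2.22 in EPFR (adjusted p = 0.0529, limma) and 2.43 in EPFR lo (adjusted p = 0.0198, limma).

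**Figure D1:**
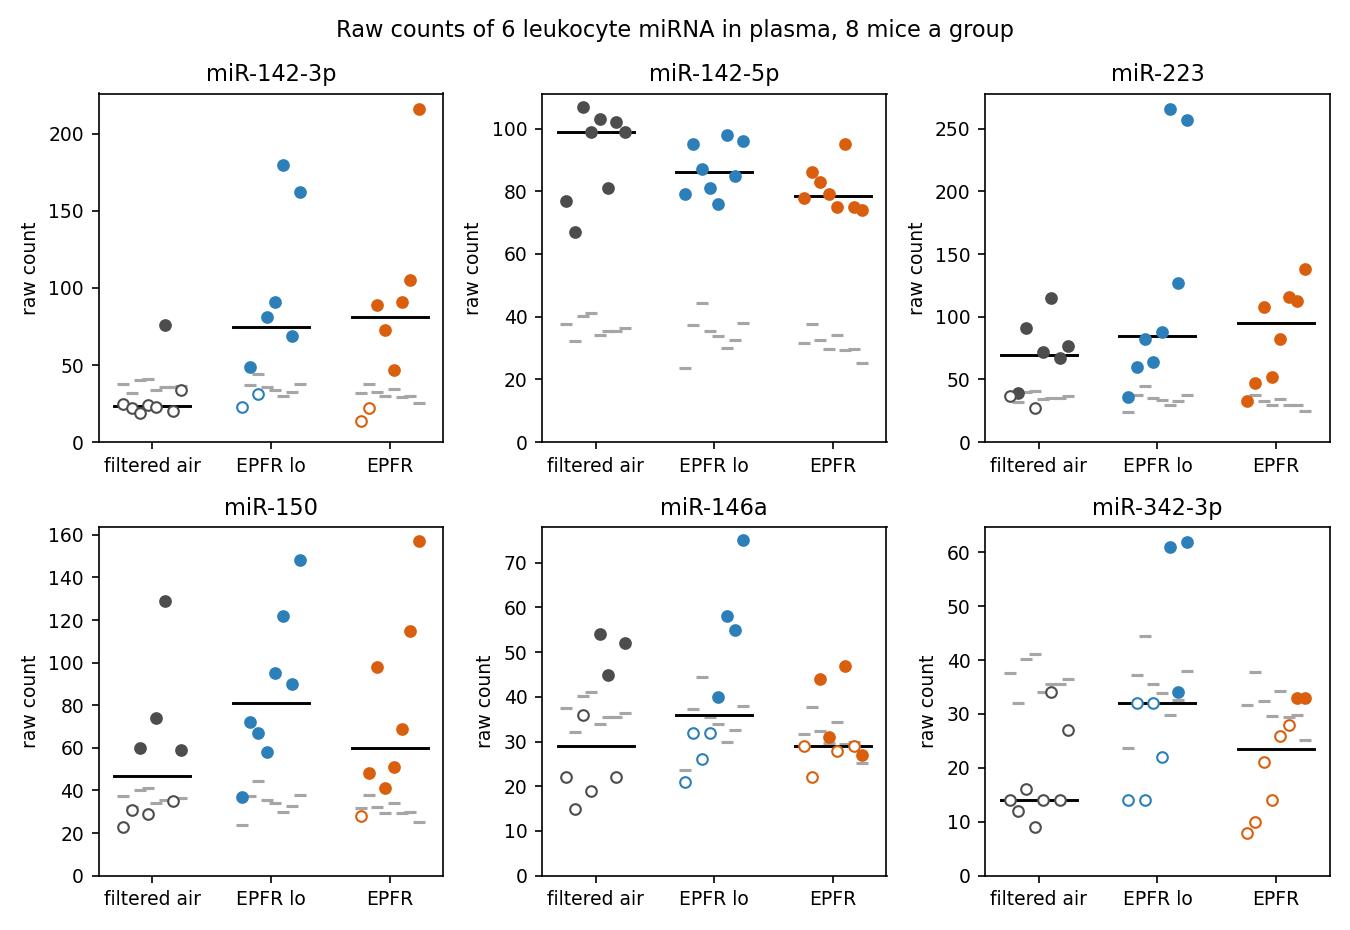
Raw counts (y axis, counts per probe) of 6 members in each mouse, by group (x axis, 8 mice a group). Filled points lie over that mouse's own background limit, drawn as a grey dash, open points lie at or under it, and the black line is the group median. The miR-142-3p median was 23.5 after filtered air, 75 after EPFR lo and 81 after EPFR, whereas miR-142-5p stayed between 67 and 107 in all 24 mice.

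The other arm of the same hairpin, miR-142-5p, behaved differently. Its raw counts had a lowest, median and highest value of 67, 99 and 107 in filtered air, 76, 86 and 98 in EPFR lo, and 74, 78.5 and 95 in EPFR. All mice were above their own background limit. That limit comes from the negative controls, so it does not cover background particular to 1 probe. Whether the steady count of miR-142-5p held such background was not tested. The exposed mice lay inside the filtered air range, but 5 of 8 filtered air mice had raw counts above every exposed mouse, and 0 of 8 mice in either exposed group were above the filtered air median. Its coefficient of variation over the 24 mice was 12.9%, the lowest of all 41 miRNA above background, whose median was 54.0%. For miR-142-3p it was 83.1%, position 37 of 41 from the lowest. For miR-142-5p the log2 fold change was -0.05 in EPFR (95% interval -0.77 to 0.67, adjusted p = 0.995) and 0.10 in EPFR lo (-0.62 to 0.82, adjusted p = 1.00).

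A scaling factor per mouse cancels in the ratio of the arms. As raw counts of miR-142-5p hardly varied, this ratio mostly follows the unscaled raw count of miR-142-3p. The arms also related differently to the ligation controls described below (r = 0.54 for miR-142-3p and -0.44 for miR-142-5p). A difference in ligation between mice therefore need not cancel. On the log2 scale miR-142-3p over miR-142-5p averaged -1.70 ± 0.74 after filtered air, -0.32 ± 0.98 after EPFR lo and -0.38 ± 1.27 after EPFR (± SD over 8 mice a group). It was above the filtered air median in 8 of 8 EPFR lo mice and 6 of 8 EPFR mice. The difference was 1.38 in EPFR lo (standard error 0.43, exact permutation p = 0.00932) and 1.32 in EPFR (standard error 0.52, exact permutation p = 0.0256). Over the 15 ratio tests the adjusted values were 0.140 and 0.192, so neither passed. The EPFR lo difference passed without filtered air mouse 6 (1.61, adjusted permutation p = 0.0396) and with the negative-control mean subtracted (3.00, adjusted permutation p = 0.0408).

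miR-223, the myeloid member, had raw counts of 27, 69.5 and 115 in filtered air (lowest, median and highest), 36, 85 and 266 in EPFR lo, and 33, 95 and 138 in EPFR. The group ranges overlapped, and the 2 highest counts, 266 and 257, belonged to EPFR lo mice 6 and 8. Scaled counts were 65.2 ± 27.8, 114.7 ± 42.0 and 100.2 ± 55.1 in these groups. The log2 fold change was 0.82 in EPFR lo (standard error 0.37, unadjusted p = 0.0282, adjusted p = 0.761 from edgeR) and 0.61 in EPFR (standard error 0.37, adjusted p = 0.991), and neither passed. The exact permutation p in EPFR lo was 0.0126 unadjusted and 0.0755 adjusted. There 7 of 8 mice were above the filtered air median on scaled counts and 5 of 8 on raw counts. With positive-control scaling the unadjusted exact permutation p was 0.0550.

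The within-mouse log2 ratio of miR-142-3p over miR-223 was higher by 0.77 in EPFR (exact permutation p = 0.0427, adjusted 0.214, 6 of 8 mice above the filtered air median) and by 0.60 in EPFR lo (p = 0.0751, adjusted 0.248, 7 of 8 mice). Neither passed the adjustment.

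miR-150, the lymphocyte member, had raw counts of 23, 47 and 129 in filtered air (lowest, median and highest), 37, 81 and 148 in EPFR lo, and 28, 60 and 157 in EPFR. As with miR-142-3p, filtered air mouse 6 held the highest filtered air count and EPFR mouse 8 the highest of all. It was above the mouse's own background limit in 4 of 8, 8 of 8 and 7 of 8 mice. Scaled counts were 56.1 ± 34.4, 89.5 ± 18.6 and 89.1 ± 59.5, and the log2 fold changes of 0.68 in EPFR lo and 0.67 in EPFR (adjusted p = 1.00 and 0.991) did not pass. The exact permutation p was 0.0186 in EPFR lo (adjusted 0.0839) and 0.264 in EPFR (adjusted 0.475). All 8 EPFR lo mice were above the filtered air median on scaled counts, and 7 of 8 on raw counts. The other, EPFR lo mouse 1 with a raw count of 37, had the shared factor of 1.66.

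miR-146a, the NF-κB feedback member, had raw counts of 15, 29 and 54 in filtered air (lowest, median and highest), 21, 36 and 75 in EPFR lo, and 22, 29 and 47 in EPFR. It passed the mouse's own background limit in 3 of 8, 4 of 8 and 4 of 8 mice. Its log2 fold changes of 0.40 in EPFR lo (95% interval -0.23 to 1.03) and 0.12 in EPFR (-0.51 to 0.75) did not pass. miR-146b, with the same seed, averaged 20.0 counts and was above the limit in 0 of 24 mice, with log2 fold changes of 0.20 and -0.01.

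miR-342-3p, the member transcribed within Evl, had raw counts of 9, 14 and 34 in filtered air (lowest, median and highest), 14, 32 and 62 in EPFR lo, and 8, 23.5 and 33 in EPFR. The EPFR lo mice were mostly higher than filtered air, with 7 of 8 scaled counts above its median, but 0 of 8 filtered air mice, 3 of 8 EPFR lo mice and 2 of 8 EPFR mice passed their own background limit. The log2 fold change was 1.01 in EPFR lo (standard error 0.31, unadjusted p = 0.00116, adjusted p = 0.109) and 0.49 in EPFR (standard error 0.32, adjusted p = 0.991). The EPFR lo value passed with TMM scaling (0.91, adjusted p = 0.0464), with DESeq2 (0.91, adjusted p = 0.00690) and with replicates 1 to 4 against 5 to 8 as a block (1.06, adjusted p = 0.0381). It also passed without filtered air mouse 6 or without EPFR lo mouse 3 (1.21 and 1.13). Its other arm, miR-342-5p, averaged 20.1 counts, with log2 fold changes of 0.01 in EPFR lo and -0.09 in EPFR.

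miR-155, the activation-induced member, was listed at a raw count of 1 in all 24 mice, as were 4 of the 566 probes in all. As the negative controls gave more counts than this, no fold change is given, and nothing is said of its level.

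At an unadjusted p under 0.05, the members higher were 1 in EPFR (background 3.89%) and 3 in EPFR lo (background 4.42%), the latter being miR-142-3p, miR-223 and miR-342-3p. The median log2 fold change of the 6 members with a value was 0.55 in EPFR and 0.75 in EPFR lo. Over the 562 probes with a value it was -0.09 and 0.10. For the 41 miRNA above background it was 0.59 and 0.60, and for the 5 members among them 0.61 and 0.68. As that limit was set on the mean over all mice, the 41 are no independent background.

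**Figure D2:**
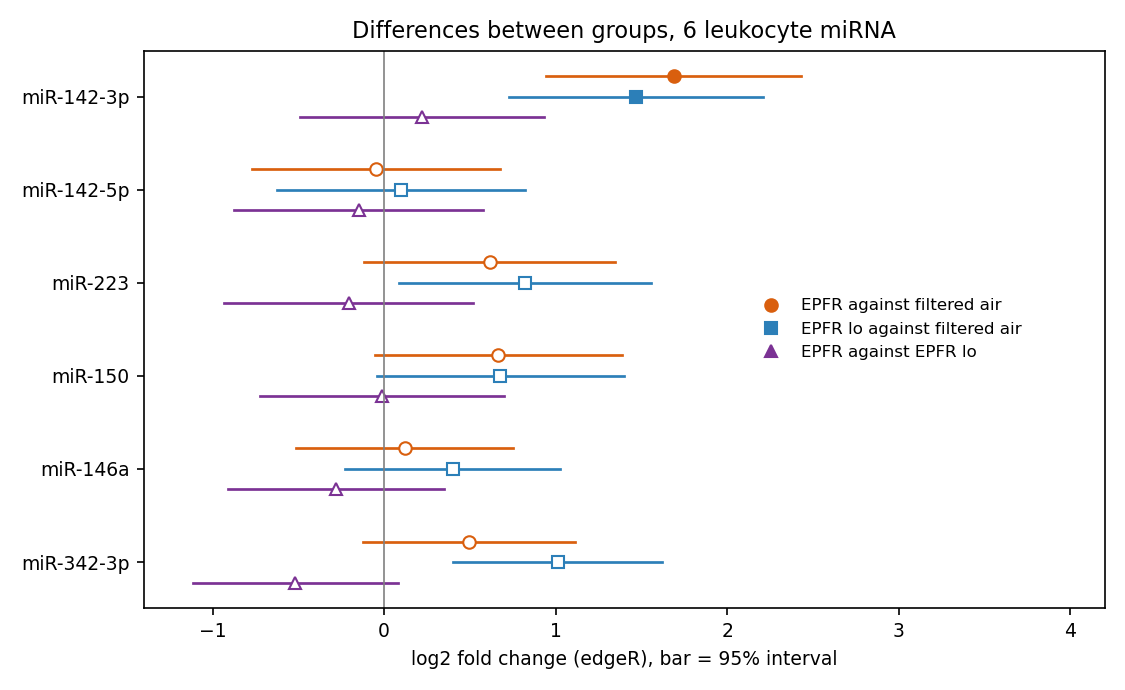
The log2 fold changes from edgeR (x axis) of 6 members (y axis) in 3 comparisons, with bars for the 95% interval and n = 8 mice a group. Filled symbols had an adjusted p under 0.05, which were miR-142-3p in EPFR (1.69) and in EPFR lo (1.47), and every EPFR against EPFR lo interval spanned 0.

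No member passed the test between EPFR and EPFR lo. At an adjusted p under 0.05, 0 of 7 were called in either direction by edgeR (background 0.177%), and 0 at an unadjusted p under 0.05 (background 2.47%). DESeq2 also called 0. The intervals were wide: the log2 difference of EPFR against EPFR lo was 0.22 for miR-142-3p (95% interval -0.49 to 0.93), -0.21 for miR-223 (-0.93 to 0.52) and -0.52 for miR-342-3p (-1.12 to 0.08). Differences inside these intervals are not excluded by the data. For miR-142-3p the sign turned without EPFR mouse 8 (-0.15).

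Other miRNA of leukocytes were read from a list of 24, of which 17 were on the panel and 3 were above background. In EPFR 10 of the 17 log2 fold changes were positive and in EPFR lo 16 of 17, with medians of 0.08 and 0.27. Over all probes with a value, 206 of 562 were positive in EPFR and 385 of 562 in EPFR lo. After adjustment 0 passed with edgeR, and 3 had an unadjusted p under 0.05 in each exposure, all of them upward, as were 22 of 566 probes in EPFR and 25 in EPFR lo. miR-21, which is induced in activated immune and many other cells, had the smallest p, with scaled counts of 34.2 after filtered air, 75.5 after EPFR lo and 79.3 after EPFR and log2 fold changes of 1.14 (adjusted p = 0.131) and 1.20 (adjusted p = 0.0869). miR-29a followed, with 0.83 in EPFR lo and 0.75 in EPFR (adjusted p = 0.511 and 0.817). miR-140 and miR-29b, both below background, were the remaining ones of smallest p, at 0.82 in EPFR and 0.64 in EPFR lo.

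Red blood cells are a large source of plasma miRNA, and the median of their summed count was higher in both exposed groups, with overlapping ranges. By the study's methods, plasma with hemolysis had been left out. The summed scaled count of 9 measured red blood cell miRNA, miR-451 and miR-16 among them, ran from 980 to 8237 in filtered air (median 2489), 3311 to 10550.0 in EPFR lo (median 6169) and 1649 to 12372 in EPFR (median 7257). The 6 members other than miR-155 summed to 119 to 455 (median 287), 317 to 578 (median 459) and 137 to 769 (median 469) in the same groups. Of the red blood cell list, 8 of 9 log2 fold changes were positive in EPFR and 9 of 9 in EPFR lo, with medians of 0.75 and 0.60. Among the 41 miRNA above background, 32 were positive in EPFR and 40 in EPFR lo, with medians of 0.59 and 0.60. As that limit was set on the mean over all mice, a probe could pass it through the exposed groups alone, so these values are no independent background.

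Ratios to red blood cell miRNA bear on this without any scaling. The log2 ratio of miR-142-3p over miR-451, the miRNA with the most counts, averaged -6.25 ± 0.63 after filtered air, -5.88 ± 0.46 after EPFR lo and -5.72 ± 0.82 after EPFR (± SD over 8 mice a group). The differences of 0.37 in EPFR lo and 0.53 in EPFR (exact permutation p = 0.212 and 0.179, with 5 and 6 of 8 mice above the filtered air median) did not pass. Over miR-16 the log2 ratio differed by 0.08 in EPFR lo and by -0.41 in EPFR (exact permutation p = 0.818 and 0.283). For miR-223 over miR-451 the differences were -0.23 in EPFR lo and -0.24 in EPFR (exact permutation p = 0.514 and 0.524). For both members these differences were within the spread between mice. With the negative-control mean subtracted first, miR-142-3p over miR-451 passed in EPFR lo (1.98, adjusted permutation p = 0.0408).

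Lists for other sources gave the following counts. Of 9 measured platelet miRNA, 0 passed at an unadjusted p under 0.05 in either exposure by edgeR, with median log2 fold changes of 0.19 in EPFR and 0.29 in EPFR lo. Of 6 endothelial miRNA, of which miR-126-3p and miR-126-5p are also on the platelet list, 0 were higher in either exposure at that p and 1 was lower in EPFR. Of 4 liver miRNA, 1 passed the adjusted threshold in EPFR lo, and of 7 striated muscle miRNA, 1 passed it in EPFR. The part of these sources in the members' counts was not tested.

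Within groups, several members varied together from mouse to mouse. Likeness was the correlation over 24 mice of deviations from the group mean of log2 scaled counts, among the 41 miRNA above background. miR-223 and miR-150 had r = 0.88 and Spearman's rho = 0.83 (permutation p = 1e-05, the smallest that 100000 permutations can give, adjusted 3.33e-05 over 10 pairs). For miR-142-3p, r was 0.82 with miR-150 (rho 0.78) and 0.82 with miR-223 (rho 0.80), each with an adjusted p of 3.33e-05. Leaving out the 2 mice farthest from the median gave 0.79 for miR-223 with miR-150, 0.77 for miR-142-3p with miR-150 and 0.72 for miR-142-3p with miR-223. In replicates 1 to 4 and 5 to 8 these 3 pairs ran from 0.73 to 0.95.

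miR-142-5p stood apart here as well. Its r with miR-142-3p was 0.36 (rho 0.30, adjusted permutation p = 0.110), which placed it 38th of 40 among the miRNA ranked by likeness to the other arm. Under positive-control scaling this r was -0.33, and r of miR-142-5p with miR-223, miR-150 and miR-146a was -0.20, -0.31 and -0.03. Its scaled counts followed the housekeeping factor itself (r = 0.93, rho = 0.90, adjusted permutation p = 6e-05), as follows where raw counts hardly vary. The miRNA most like it were miR-135a (r = 0.89), miR-323-3p (r = 0.82) and miR-202-5p (r = 0.79). With coefficients of variation of 16.1%, 16.7% and 24.6%, these 3 were the next lowest in spread after it.

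The nearest miRNA to the other members were these. miR-142-3p was nearest to let-7i (r = 0.93), the joint probe of miR-106a and miR-17 (r = 0.88) and miR-15a (r = 0.88). miR-223 was nearest to miR-150, miR-21 (r = 0.86) and miR-23a (r = 0.84), and miR-150 to let-7g (r = 0.88), miR-223 and the joint probe (r = 0.86). miR-146a was nearest to miR-19a (r = 0.82), miR-486 (r = 0.80) and miR-451 (r = 0.79). Both miR-486 and miR-451 are on the red blood cell list. All of these correlations share each mouse's scaling factor and depth.

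**Figure D3:**
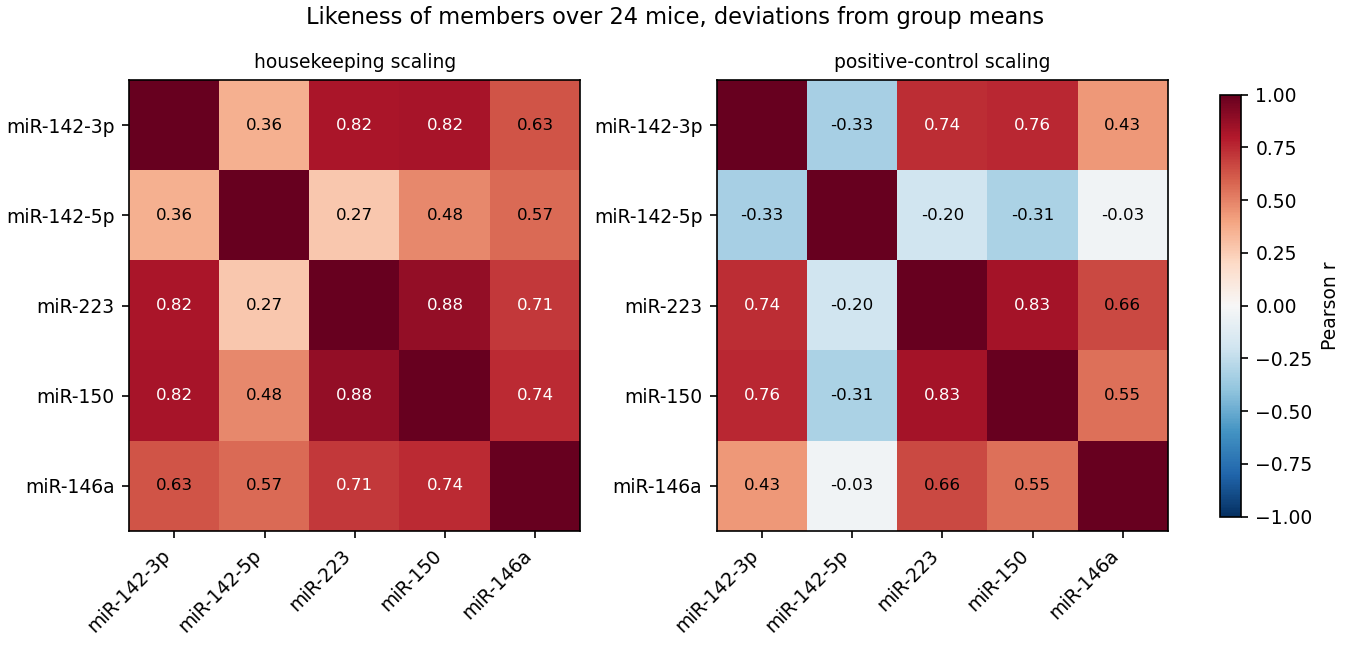
Pearson's r between 5 members above background over 24 mice, after subtracting group means from log2 counts, with housekeeping scaling (left) and positive-control scaling (right). The pairs of miR-142-3p, miR-223 and miR-150 lay at 0.82 to 0.88 on the left, whereas miR-142-5p with miR-142-3p went from 0.36 to -0.33.

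The ligation positive controls, which report how well tags were joined to RNA in each reaction, differed between the groups as well. Relative to filtered air, their geometric mean was 2.59-fold in EPFR (exact permutation p = 0.00373, 8 of 8 mice above the filtered air median) and 1.88-fold in EPFR lo (exact permutation p = 0.112, 6 of 8 mice). Group means were subtracted from log2 counts scaled to the positive controls and from this level on the log2 scale. Over 24 mice, these deviations correlated for miR-342-3p (r = 0.75, rho 0.72), miR-223 (r = 0.63, rho 0.60), miR-146a (r = 0.62, rho 0.61), miR-150 (r = 0.54, rho 0.53) and miR-142-3p (r = 0.54, rho 0.55). The adjusted permutation p of these 5, over 8 relations, ran from 0.00048 to 0.00813. miR-142-5p had r = -0.44 (rho -0.50, adjusted permutation p = 0.0366).

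Most of these relations were weaker within replicates 1 to 4 and within replicates 5 to 8. For miR-142-3p, r was 0.43 in replicates 1 to 4 and 0.29 in replicates 5 to 8, for miR-223 0.49 and 0.06, and for miR-342-3p 0.85 and 0.43. Without the 2 mice farthest from the median, r was 0.61 for miR-142-3p, 0.65 for miR-223 and 0.72 for miR-342-3p. With the log2 ligation level as a covariate in edgeR, miR-142-3p had a log2 fold change of 1.00 in EPFR (adjusted p = 0.999) and 0.98 in EPFR lo (adjusted p = 0.998), and 0 of 7 members were called (unadjusted p = 0.0262 and 0.0152 for miR-142-3p). As the ligation level moved with exposure, their shares in the miR-142-3p result cannot be told apart.

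**Figure D4:**
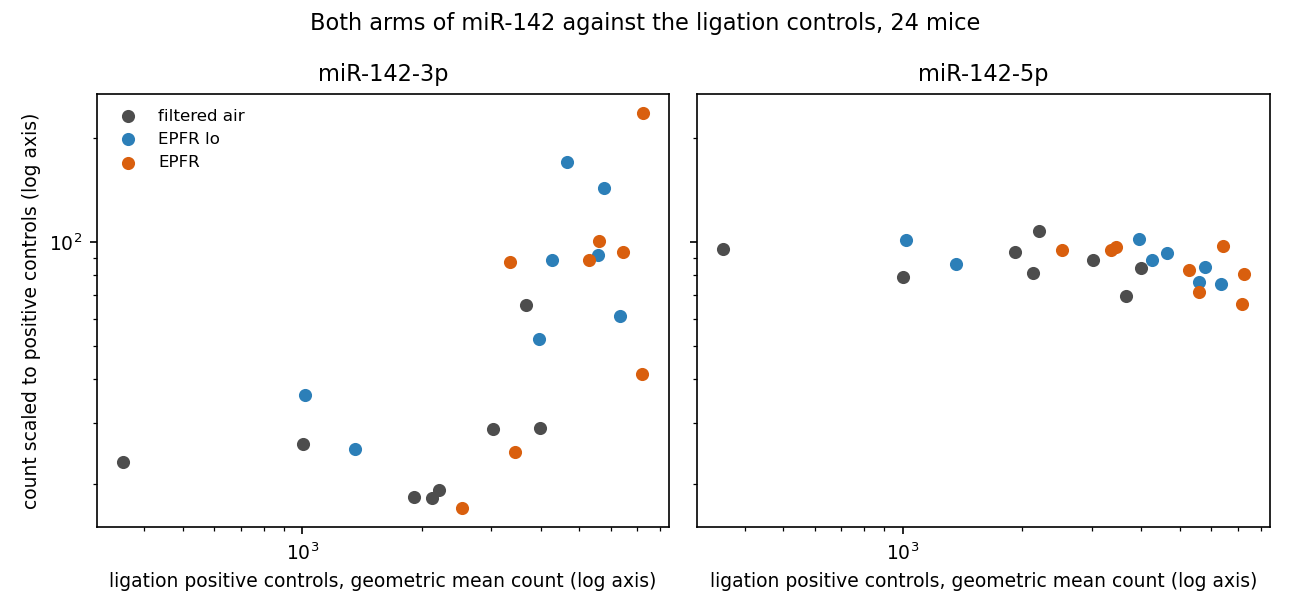
Counts of both miR-142 arms scaled to the positive controls (y axis, log scale) against the geometric mean count of the ligation positive controls (x axis, log scale), 1 point a mouse, colored by group. The points are drawn without subtracting group means. After subtracting them from log2 values, r over 24 mice was 0.54 for miR-142-3p and -0.44 for miR-142-5p.

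Across 13 other ways of processing the counts, miR-142-3p was called in 9 in EPFR and in 7 in EPFR lo, and its log2 fold change was positive in all of them, as the plot by way of processing shows.

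**Figure D5:**
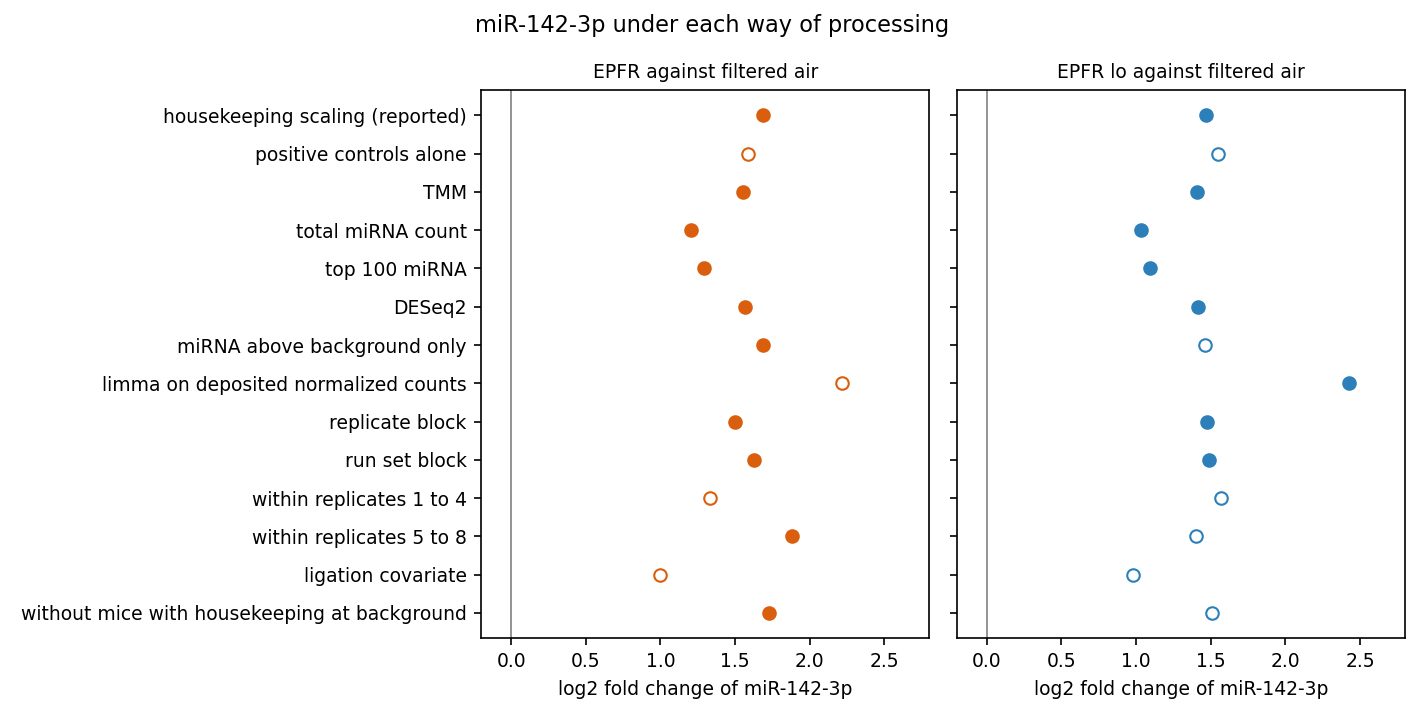
The log2 fold change of miR-142-3p (x axis) in EPFR (left) and EPFR lo (right) against filtered air under each way of processing (y axis), filled where the adjusted p was under 0.05. The values lay above 0 throughout, from 1.00 to 2.22 in EPFR and from 0.98 to 2.43 in EPFR lo, while the call was lost under several of them.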

How the data were processed

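Plasma RNA was assayed on the NanoString nCounter mouse miRNA panel. The authors deposited raw counts of each probe, unscaled, and a normalized signal made from the counts in nSolver by background subtraction and scaling to positive controls and the housekeeping mRNAs Actb, B2m, Gapdh and Rpl19. The authors' own fold changes and p-values were not used. From the raw counts, a scaling that recovered 100.0% of the deposited normalized values within 2% was recomputed and passed to edgeR 4.0.16 under R 4.3.3. Its quasi-likelihood F test took all 24 mice and the 3 groups without a filter, and the Benjamini-Hochberg method adjusted p over 566 mouse miRNA in each comparison. Deposited normalized signal was tested with limma 3.58.1 on log2(value + 1), and DESeq2 1.42.0 was an alternative. Single members and within-mouse ratios of raw counts, with a pseudocount of 1, were compared by exact permutation, two-sided, between groups of 8 (scipy 1.17.1, 12870 regroupings, smallest possible p = 0.000155). Correlations used 100000 permutations within groups. The script for edgeR was tested on simulated data.

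The named miRNA are the 7 members, the 3 miRNA most like each member above background, the 4 of smallest p in the list of other leukocyte miRNA, and miR-451, miR-144, miR-16 and miR-23a as reference. The members were chosen by probe name, and no measured value entered that rule. Earlier results of these data were known when the members and lists were chosen. Sequences are from RefSeq (GRCm38.p6). Depth was 8418 to 30483 counts per mouse, and counts near the limit of 34.1 are imprecise. Each mouse is a separate animal, and the exact permutation p of a member rests on the spread of that member between mice. The edgeR p also draws on the spread of all 566 probes. In EPFR the edgeR standard error was 0.38 for miR-142-3p and 0.37 for miR-142-5p. Their raw counts had coefficients of variation of 83.1% and 12.9%. Replicates 1 to 4 and 5 to 8 were set apart by replicate number. Their mean positive-control counts overlapped, at 1135.3 to 1465.8 and 1309.5 to 1778.7. Deviations of same-numbered mice correlated over 0.1 in 13 of 24 pairs (median 0.145), not in every pair, so the numbers were not taken to pair the mice. Scalings, filters, blocks, covariates, pseudocounts and left-out mice were tried as alternatives.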

Additional observations from a re-analysis of the deposited data

Results flagged for a closer look

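Filtered air mouse 6 lay far from the other filtered air mice in 2 of the 33 groups of 8 values examined. These groups were examined for a single distant mouse, and chance gives about 1 in 20, so 2 of 33 is near that rate. Both flagged values use the same miR-142-3p count. The scaled miR-142-3p count of mouse 6 was 72.1, against a filtered air median of 28.7. Its log2 ratio of miR-142-3p over miR-142-5p was -0.0908, against a filtered air mean of -1.70. It also held the highest filtered air scaled counts of miR-150 (122.4), miR-223 (109.1), miR-342-3p (32.3) and the red blood cell miRNA miR-144 (265.7). For the red blood cell miRNA miR-451 (6600 against 5524 in mouse 6) and miR-16 (922 against 763) the highest was mouse 8, and for miR-146a (62.8 against 42.7) mouse 5. Without it, the log2 fold changes of miR-223 were 0.76 in EPFR and 0.97 in EPFR lo, and those of miR-150 were 0.94 and 0.95. None of these passed (adjusted p = 0.768, 0.317, 0.373 and 0.317, edgeR). Whether anything set this mouse apart was not tested.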

How the results depend on the processing

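The log2 fold change of miR-142-3p against filtered air kept its sign under all 13 alternatives and with each mouse left out. Its EPFR value was not called with positive controls alone (1.59), limma on the deposited normalized counts (2.22), replicates 1 to 4 alone (1.33) or the ligation covariate (1.00), each with 0 members called. Its EPFR lo value was not called with positive controls alone (1.55), with miRNA above background only (1.47), in replicates 1 to 4 (1.57) or 5 to 8 (1.4) alone, with the ligation covariate (0.98) or without the 4 mice with housekeeping at background (1.51), each with 0 members called. Fewer mice enter the fits within replicates, and fewer probes the fit above background. Why the call was lost was not tested for any of these settings. With TMM, DESeq2 and the block of replicates 1 to 4 against 5 to 8, 2 members were called in EPFR lo, miR-142-3p and miR-342-3p. Probes called in EPFR numbered 4 with edgeR, 6 with TMM and 18 with DESeq2, and in EPFR lo 4, 6 and 13. Total-count scaling moved the median log2 fold change of all probes in EPFR from -0.09 to -0.37. Replicate numbers were not taken to pair the mice, as 13 of 24 same-numbered pairs correlated over 0.1, and with the replicate block miR-142-3p was at 1.5 in EPFR and 1.48 in EPFR lo, still called (adjusted p = 0.0143 and 0.00606), while calls over all probes went from 4 to 2 and from 4 to 7.

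With each mouse left out, members called ranged from 0 to 1 in EPFR and from 0 to 2 in EPFR lo. miR-142-3p ranged from 1.31 to 2.00 in EPFR, from 1.35 to 1.78 in EPFR lo and from -0.15 to 0.40 in EPFR against EPFR lo. In EPFR, miR-142-5p ranged from -0.15 to 0.041 and miR-146a from -0.031 to 0.31. In EPFR lo, miR-142-5p ranged from -0.018 to 0.19, and in EPFR against EPFR lo miR-150 ranged from -0.26 to 0.14. The ratio of miR-142-3p over miR-16 ranged from -0.15 to 0.28 in EPFR lo. In EPFR against EPFR lo, the ratio of miR-142-3p ranged from -0.055 to 0.33 over miR-451 and from -0.33 to 0.23 over miR-142-5p, and miR-223 over miR-451 from -0.13 to 0.13.

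Other changes of sign were all among values that were not called. In EPFR, miR-146a was at -0.14 with total counts, -0.079 with the top 100 miRNA, -0.22 in replicates 5 to 8 and -0.23 with the ligation covariate. With that covariate miR-142-5p was at 0.19, miR-223 at -0.0080 and miR-342-3p at -0.14, and with DESeq2 miR-142-5p was at 0.0056. In EPFR lo, miR-142-5p was at -0.066 with TMM, -0.39 with total counts, -0.34 with the top 100 miRNA, -0.063 with DESeq2, -0.37 in replicates 5 to 8 and -0.24 without mice with housekeeping at background, and miR-146a at -0.0035 with total counts. In EPFR against EPFR lo, miR-142-5p was at 0.063 with TMM, 0.059 with total counts, 0.080 with the top 100 miRNA, 0.068 with DESeq2, 0.31 in replicates 5 to 8 and 0.23 without mice with housekeeping at background. There miR-150 was at 0.0078, 0.010, 0.015, 0.34 and 0.014 with TMM, the top 100 miRNA, DESeq2, replicates 5 to 8 and without those mice, and miR-142-3p at -0.21 with limma and -0.23 in replicates 1 to 4.

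With the limit at 3 SD the share of mice above it for miR-146a was -12.5 percentage points in EPFR. With pseudocounts of 5 and 10, miR-142-3p over miR-16 was at -0.0040 and -0.090 in EPFR lo, and miR-223 over miR-451 at 0.0030 and 0.016 in EPFR against EPFR lo. With the negative-control mean subtracted, miR-142-3p over miR-451 passed in EPFR lo at 1.98 (adjusted permutation p = 0.0408) and was at -0.12 in EPFR against EPFR lo. There miR-142-3p over miR-223 was at -0.11, and in EPFR miR-142-3p over miR-16 was at 0.80. miR-223 over miR-451 was then at 0.050 in EPFR and 0.060 in EPFR lo. Many counts lie near the background limit, which limits what can be measured for miR-146a, miR-342-3p and, in filtered air, miR-142-3p.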
